A study of Mus musculus with 8 samples.

Results

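Mitochondrial ribosomal protein genes were compared between the hearts of tumor-bearing and PBS-injected male mice. The members were the protein-coding genes whose symbol starts with Mrpl or Mrps followed by a digit, 77 of 43346 genes listed, with 48 Mrpl and 29 Mrps symbols. All 77 passed the filter on low counts that left 16111 genes to be tested. A further 4 pseudogene rows with such symbols were left out. By position in the ribosome, 50 members belong to the large subunit (Mrps18a and Mrps30 among them) and 26 to the small subunit, while Mrps36 was counted in neither because its product is now known as a component of the 2-oxoglutarate dehydrogenase complex.

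The 4 LLC1 mice were male C57BL/6 animals that received 1000000 LLC1 cells under the skin of the flank at 7 weeks of age. LLC1 is a single Lewis lung carcinoma line of C57BL/6 origin, so every tumor came from the same cells. The 4 PBS mice were males of the same strain and age that received PBS without cells, and ventricular tissue of both groups was taken on day 14. The study asked how a tumor at a distance alters the heart, including its mitochondria. Mice are named by group and by the code in their label, such as PBS 1-1.

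Mitochondrial ribosomes translate the few proteins encoded in mitochondrial DNA, all of them subunits of the respiratory chain or of ATP synthase. Their RNA is encoded in mitochondrial DNA, but every ribosomal protein is encoded in the nucleus, made in the cytosol and imported. Many of the proteins have counterparts in bacterial ribosomes and the others are particular to mitochondria, and the heart, which depends on respiration, is among the tissues affected when some of these genes are mutated in humans. The 37 genes of mitochondrial DNA were listed with 0 counts in every mouse, so neither the ribosomal RNA nor the translated messages could be set beside the proteins.

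Libraries held between 12480706 and 19747596 counts on genes, and the raw counts of the members ranged from 189 to 4442. Levels are given as CPM, the counts on a gene per 1000000 counts of the TMM-scaled library. Cardiomyocyte markers dominated, with a summed level of 87357 to 93852 CPM in LLC1 mice and of 78434 to 80626 CPM in PBS mice, where 1 of the 6 was higher (Myh6), 0 were lower and 2 had log2 fold changes below 0 (Ryr2 and Actc1). The summed markers of endothelial cells were 605 to 672 against 700 to 895 CPM (2 of 5 lower), those of fibroblasts 607 to 681 against 639 to 738 CPM (2 of 5 lower), those of macrophages 193 to 229 against 221 to 326 CPM (2 of 5 lower) and those of smooth muscle cells and pericytes 679 to 752 against 776 to 920 CPM (0 of 4 lower). Of neutrophil markers 2 of 2 tested were higher, at a summed 1.61 to 2.63 against 0.353 to 1.201 CPM, and those of red cells spread over 901 to 3253 against 979 to 1956 CPM (0 of 3). The part of these cell types in the differences between the groups was not tested. Ucp1, the defining marker of brown fat, was at 0 counts, while Cidea stood at 27.7 to 33.7 against 24.96 to 29.0 CPM (log2 fold change 0.24, adjusted p = 0.0950). Myh4 of skeletal muscle was at 0 counts, while Mybpc2 stood at 30.7 to 46.5 against 27.1 to 39.1 CPM. PBS 1-1 had the lowest TMM factor of all mice, at 0.935.

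The start regions of several members were examined as sequence. RefSeq windows from 250 bases before to 50 bases after the start were at hand for 68 members on GRCm38.p6. The RefSeq start was not always the deposited gene start, and lay 17015 bases downstream of it for Mrpl33 and 7978 for Mrps24. The windows of the 3 genes that were higher in LLC1 mice and had a window are shown first. Mrps22, the member with the lowest fold change, follows, and then Mrps18b, which holds matches to both the ETS letters and the NRF1 core. Mrpl17, Mrpl22 and Mrpl33 hold both as well and are not shown. All windows shown are printed 5′ to 3′ on the strand of the gene. Capitals mark matches, on either strand, to CCGGAAG (GABP and other ETS factors), GCATGCGC (the core of the NRF1 element), AAGATGG (YY1) and CACGTG (the E-box).
Mrpl2, chr17:46645971-46646270, plus strand: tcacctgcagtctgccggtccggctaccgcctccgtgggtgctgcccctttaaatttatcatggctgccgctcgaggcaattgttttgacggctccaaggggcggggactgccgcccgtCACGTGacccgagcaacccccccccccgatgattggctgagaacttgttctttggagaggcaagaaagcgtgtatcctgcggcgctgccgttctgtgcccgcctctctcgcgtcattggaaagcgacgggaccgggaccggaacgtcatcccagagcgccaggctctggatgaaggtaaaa
Mrpl57, chr14:57825989-57826288, plus strand: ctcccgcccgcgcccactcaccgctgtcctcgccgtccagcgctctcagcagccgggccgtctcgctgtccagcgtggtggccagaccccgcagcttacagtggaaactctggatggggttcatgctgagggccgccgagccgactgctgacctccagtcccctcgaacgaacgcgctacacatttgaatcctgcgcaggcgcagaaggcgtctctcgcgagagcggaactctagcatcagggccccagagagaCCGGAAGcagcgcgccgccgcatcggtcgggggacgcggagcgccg
Mrps12, chr7:28741772-28742071, minus strand: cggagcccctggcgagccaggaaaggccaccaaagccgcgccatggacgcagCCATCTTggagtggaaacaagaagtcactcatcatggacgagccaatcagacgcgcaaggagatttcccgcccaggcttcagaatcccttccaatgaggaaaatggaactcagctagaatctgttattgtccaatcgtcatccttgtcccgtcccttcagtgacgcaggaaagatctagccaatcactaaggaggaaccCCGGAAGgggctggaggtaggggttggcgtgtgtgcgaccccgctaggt
Mrps22, chr9:98601630-98601929, minus strand: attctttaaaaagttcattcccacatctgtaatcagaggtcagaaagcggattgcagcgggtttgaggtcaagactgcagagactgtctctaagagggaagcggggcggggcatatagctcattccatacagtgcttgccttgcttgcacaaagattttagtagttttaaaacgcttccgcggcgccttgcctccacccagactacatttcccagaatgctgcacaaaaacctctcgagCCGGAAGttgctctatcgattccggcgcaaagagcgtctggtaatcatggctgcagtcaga
Mrps18b, chr17:35916391-35916690, minus strand: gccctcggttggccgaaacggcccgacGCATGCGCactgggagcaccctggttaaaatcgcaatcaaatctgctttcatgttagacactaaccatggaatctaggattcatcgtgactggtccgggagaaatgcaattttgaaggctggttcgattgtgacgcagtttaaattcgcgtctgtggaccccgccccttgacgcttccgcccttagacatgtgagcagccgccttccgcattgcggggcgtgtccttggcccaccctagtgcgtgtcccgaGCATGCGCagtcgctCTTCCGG

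The ETS letters stood in 24 of the 68 member windows (35.3%), compared with 17.4% of the windows of 9921 tested protein-coding genes and 9.12% of all 27025 windows. The NRF1 core stood in 8 (11.8%) against 5.31% and 2.8%, and the YY1 letters, which contain a start codon, in 13 (19.1%) against 7.1% and 6.48%. The E-box was found in 7.35% of member windows against 10.1% and 7.24%, the ERR half-site AAGGTCA in 5.88% against 3.03% and 4.66%, and the SP1 box GGGCGG in 50% against 63.7% and 35.9%. Members with the ETS letters had a median log2 fold change of 0.05 and those without of 0.04. The medians were 0.11 with the NRF1 core (8 members) and 0.04 without, 0.03 with the YY1 letters (13) and 0.04 without, and -0.01 with the E-box (5) and 0.04 without, and these differences were not tested. Of the 77 members, 33 (42.9%) had a start within 1000 bases of the start of a protein-coding gene on the other strand. This compared with 10.9% of 21951 annotated protein-coding genes, expressed or not, and the share among tested genes was not computed. Such partners included Sars2, the mitochondrial seryl-tRNA synthetase gene, whose start lay 172 bases from that of Mrps12, and Ndufb5, a complex I subunit gene paired with Mrpl47. Mrpl46 and Mrps11, a large and a small subunit gene, formed such a pair with each other.

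In PBS mice the members spanned a 135-fold range of level per kilobase of exon, with a median of 23.4 CPM per kb. The length is the sum of all exons of a gene, so a gene with long rare isoforms reads low on this scale. Mrpl42 was the highest, at 316 ± 7.82 CPM per kb (SD, n = 4), followed by Mrpl12 at 110 ± 10.3 and Mrps23 at 86.8 ± 3.55 CPM per kb. These 3 differed by more than their spread, whereas Mrps23 and the next, Mrps16 at 81.0 ± 7.56 CPM per kb, did not. A similar transcript with counts of its own, Gm6419, exists for Mrpl42. At the other end Mrps10 stood at 2.35 ± 0.172, Mrps22 at 3.98 ± 0.958 and Mrpl19 at 5.79 ± 0.598 CPM per kb, and Mrpl19 did not differ from its neighbor Mrpl15 at 5.99 ± 0.46 CPM per kb beyond the spread.

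Reads of neighboring or copied genes could enter some of the counts. Exon bases were shared with another gene in 31 of the 77 members, for 13 of them over at least 10% of the exon bases with a gene on the opposite strand. The largest such overlaps were those of Mrps25 with Nr2c2 (69.8%) and of Mrps34 with Mapk8ip3 (63.4%). Among the members given by mouse, Mrps18b shared 30.5% with Gm16279, Mrps18c 23.2% with Gm43511, Mrpl10 14.1% with Gm11574 and Mrpl12 13.1% with Gm16755. Transcripts of at least 97% identity over at least 150 bases existed elsewhere for 17 members, and for 13 of these the other gene had counts.

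Most members did not pass the test of a difference between the groups. Of 77, 5 were higher in LLC1 mice (Mrpl38, Mrpl2, Mrpl4, Mrpl57 and Mrps12) and 0 were lower at an adjusted p under 0.05 in edgeR's quasi-likelihood test, compared with 4.12% higher and 4.61% lower (8.73% in all) of the 16111 genes tested. Among the 7435 genes within the members' range of mean CPM, 5.51% were higher and 4.73% lower. In ventricular tissue, fewer cells of a type and less RNA per cell cannot be told apart. At an unadjusted p under 0.05, 14 members were higher and 0 lower, beside 12.4% and 13% of all genes. The log2 fold change was above 0 for 52 members and below 0 for 25, with a median of 0.04 compared with -0.01 over all genes. It ranged from -0.20 for Mrps22 (0.873-fold) to 0.43 for Mrpl57 (1.35-fold).

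In 8 members (Mrpl38, Mrpl2, Mrpl4, Mrps12, Mrpl53, Mrpl9, Mrps11 and Mrpl10) all LLC1 mice lay above all PBS mice and in 0 all lay below, compared with 8.89% and 8.27% of all genes. The design set bounds on what was missed. The 95% interval of the fold change stayed within 1.2-fold in either direction for 35 of the 77 members, compared with 18.7% of all genes and 35.1% of genes within the members' range of level, and within 1.5-fold for 75.

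**Figure D1:**
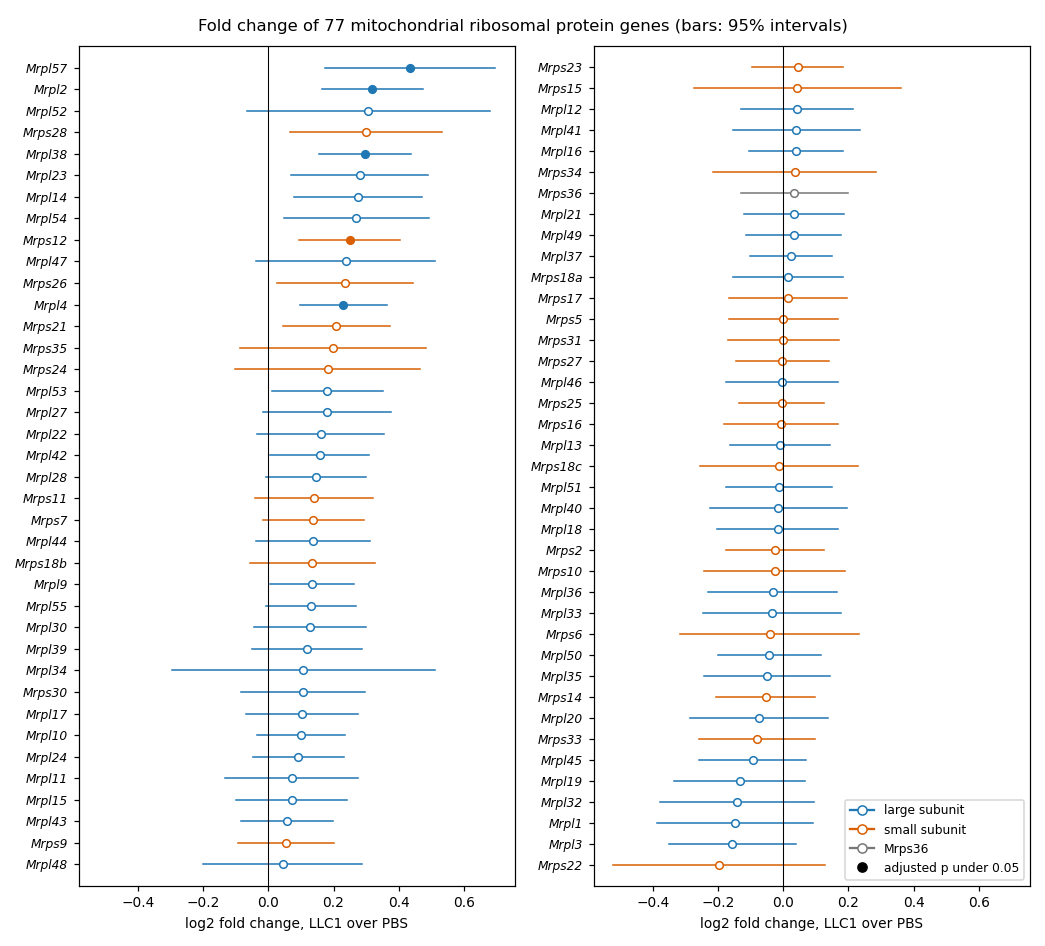
Log2 fold change of each of the 77 members, LLC1 over PBS, on the horizontal axis, with 95% intervals as bars, ordered by value over 2 panels. Blue marks the large subunit, orange the small subunit and gray Mrps36. The 5 filled points passed an adjusted p of 0.05, all to the right of 0, and most bars cross 0.

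The transcripts that rose encode 4 proteins of the large subunit and 1 of the small subunit. Mrpl38 (ENSMUSG00000020775, chr11:116131817-116138868 on mm10) encodes a mitochondria-specific protein of the central protuberance, the knob at the top of the large subunit. Its level was 56.5, 52.0, 58.5 and 55.1 CPM in LLC1 mice 1-2, 1-3, 1-5 and 2-2 and 45.8, 46.3, 42.3 and 46.6 CPM in PBS mice 1-1, 1-3, 2-1 and 2-5. Every LLC1 mouse lay above every PBS mouse, with means of 55.5 ± 2.74 and 45.2 ± 2.02 CPM (SD, n = 4 each). The log2 fold change was 0.30 (SE 0.064), which is 1.23-fold with a 95% interval of 1.11 to 1.35, at an adjusted p = 0.0171.

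Mrpl2 (ENSMUSG00000002767, chr17:46646229-46650139) encodes the counterpart of bacterial L2, which lies beside the peptidyl transferase center. Its level was 87.4, 78.0, 88.7 and 82.3 CPM in the LLC1 mice and 62.4, 66.5, 65.97 and 74.6 CPM in the PBS mice, in the same order. The groups did not overlap, and the lowest LLC1 mouse (1-3) lay near the highest PBS mouse (2-5). This was a log2 fold change of 0.32 (SE 0.072) or 1.25-fold (1.12 to 1.39), at an adjusted p = 0.0195.

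Mrpl4 (ENSMUSG00000003299, chr9:21002737-21008835) encodes the counterpart of bacterial L4, which reaches into the peptide exit tunnel. It stood at 116, 106, 113 and 107 CPM in the LLC1 mice and at 98.6, 93.8, 88.0 and 96.9 CPM in the PBS mice. The groups again did not overlap. The log2 fold change of 0.23 (SE 0.061) corresponded to 1.17-fold (1.07 to 1.29) at an adjusted p = 0.0390.

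Mrpl57 (ENSMUSG00000021967, chr14:57826239-57828745), a small mitochondria-specific protein of the large subunit, had the largest fold change of the members and the lowest level of the 5. It stood at 26.8, 19.6, 22.8 and 23.3 CPM in the LLC1 mice and at 20.4, 18.2, 14.7 and 15.6 CPM in the PBS mice. The groups overlapped, since PBS 1-1 lay above LLC1 1-3. Mrpl57 had a log2 fold change of 0.43 (SE 0.120), which is 1.35-fold (1.13 to 1.62), at an adjusted p = 0.0445.

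Mrps12 (ENSMUSG00000045948, chr7:28739641-28741820) encodes the counterpart of bacterial S12, a protein of the decoding center. It stood at 34.3, 34.3, 32.3 and 32.2 CPM in the LLC1 mice and at 25.7, 30.1, 27.3 and 28.7 CPM in the PBS mice, without overlap. Mrps12 had a log2 fold change of 0.25 (SE 0.071), which is 1.19-fold (1.07 to 1.32), and the adjusted p = 0.04996 lay just inside the threshold. Mrps12 passed in 3 of the 11 other settings over all mice, at an adjusted p from 0.0352 to 0.209 and log2 fold changes of 0.15 to 0.26. Next by adjusted p were Mrpl14 (adjusted p = 0.0789) and Mrpl23 (adjusted p = 0.0933), which did not pass, with log2 fold changes of 0.28 each.

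With a mouse left out or another scaling the count of calls changed. The count of members higher was 0 without LLC1 1-5, without PBS 1-3 or without PBS 2-1, when 1.92%, 1.3% and 2.25% of all genes were higher. It was 1 without LLC1 1-2 (2.02% of all genes), 2 without LLC1 2-2 (2.16%) and 3 without LLC1 1-3 (1.7%), all of them among the 5. It was 4 without PBS 2-5 (4.99%), of which 3 were among the 5 and Mrpl14 was not. Of the 8 fits with a mouse left out, Mrpl38 passed in 5, Mrpl2 in 4, Mrpl4 in 2, Mrpl57 in 2 and Mrps12 in 0. Their fold changes stayed above 0 in all 8, with log2 values of 0.26 to 0.33 for Mrpl38, 0.29 to 0.37 for Mrpl2, 0.19 to 0.25 for Mrpl4, 0.36 to 0.52 for Mrpl57 and 0.21 to 0.28 for Mrps12. Without PBS 1-1, 12 members were higher (5.56% of all genes), 4 of the 5 among them and the others being Mrps24, Mrps35, Mrps28, Mrps26, Mrpl54, Mrpl52, Mrpl47 and Mrpl23. With total counts as the only scaling 0 were higher (1.4% of all genes), with offsets for gene length Mrpl38 and Mrpl57 (4.8%), and with offsets for GC content Mrpl57 and Mrpl2 (3.6%). The log2 fold changes of the 5 ran from 0.18 for Mrpl4 to 0.38 for Mrpl57 with total counts only. Beside Mrps12, the calls lost stood at 0.24 for Mrpl2 and 0.16 for Mrpl4 with length offsets. With GC offsets they stood at 0.20 for Mrpl38 and 0.15 for Mrpl4. None of the 5 shares exons with another gene or has a transcript similar to one elsewhere.

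**Figure D2:**
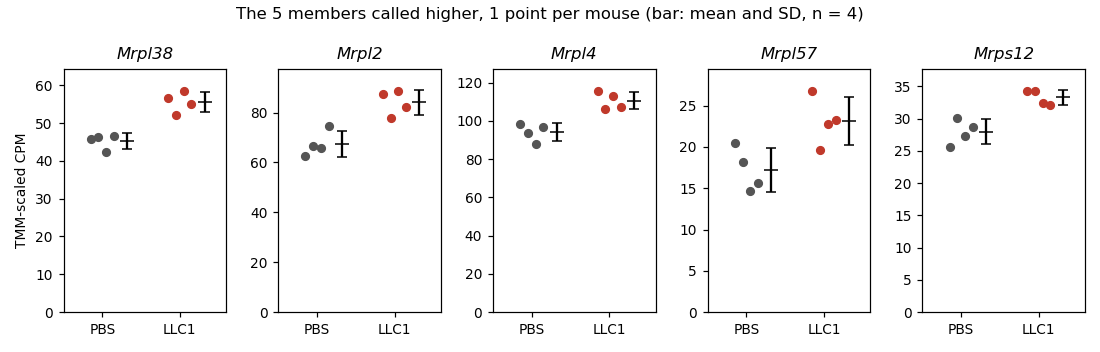
Level of the 5 members that were higher in LLC1 mice, in TMM-scaled CPM from 0, with 1 point per mouse and the group mean ± SD (n = 4) at the right of each group. The groups are apart in all panels except Mrpl57, where PBS 1-1 at 20.4 CPM lies above LLC1 1-3 at 19.6 CPM.

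The members with the lowest fold changes did not pass the test. Mrps22, a mitochondria-specific protein of the small subunit, stood at 13.4, 12.4, 16.1 and 12.9 CPM in LLC1 mice and at 21.4, 15.1, 13.0 and 13.9 CPM in PBS mice. PBS 1-1 alone was high. The fold change of Mrps22 on the log2 scale was -0.20 (SE 0.149, adjusted p = 0.445), with a range of -0.29 to -0.02 when a mouse was left out, the latter without PBS 1-1.

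Mrpl3, the counterpart of bacterial L3 near the peptidyl transferase center, stood at 76.0, 71.8, 80.7 and 75.6 CPM in LLC1 mice and at 99.2, 86.5, 82.2 and 71.5 CPM in PBS mice. The log2 fold change was -0.16 (SE 0.089, adjusted p = 0.301), with a range of -0.23 (without PBS 2-5) to -0.07 (without PBS 1-1, the highest mouse). Mrpl1, of the L1 stalk where spent transfer RNA leaves, stood at 29.9, 25.5, 33.5 and 26.3 CPM in LLC1 mice and at 36.0, 34.8, 29.8 and 27.3 CPM in PBS mice, with a log2 fold change of -0.15 (SE 0.110, adjusted p = 0.434), with a range of -0.23 (without LLC1 1-5) to -0.09 (without PBS 1-1). Mrpl32, a protein that is matured by the m-AAA protease after import, stood at 21.5, 21.3, 20.3 and 19.1 CPM in LLC1 mice and at 28.3, 21.3, 21.6 and 19.7 CPM in PBS mice, with a log2 fold change of -0.14 (SE 0.108, adjusted p = 0.445), with a range of -0.21 (without PBS 2-5) to -0.03 (without PBS 1-1). The groups overlapped in all 4 genes and PBS 1-1 was the highest mouse in each.

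Mutations of Mrpl3, Mrpl44, Mrps14 and Mrps22 are known to cause cardiomyopathy in humans. Of these 4 genes 0 passed the test in either direction, beside 8.73% of all genes. Mrpl44, a protein with a ribonuclease III fold near the exit tunnel, stood at 54.8, 50.2, 53.6 and 51.2 CPM in LLC1 mice and at 52.9, 51.4, 44.6 and 42.1 CPM in PBS mice (log2 fold change 0.14, SE 0.080, adjusted p = 0.308). Mrps14 stood at 45.2, 41.0, 43.5 and 39.1 CPM in LLC1 mice and at 44.7, 45.9, 40.8 and 43.9 CPM in PBS mice (log2 fold change -0.05, SE 0.069, adjusted p = 0.664), and it turned to 0.06 with offsets for GC content. The groups overlapped in both.

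The L7/L12 stalk is the arm that brings translation factors to the large subunit. Its 4 genes had log2 fold changes above 0, with 0 past the test. Over all genes, 7724 of 16111 lay above 0 and 8.73% passed in either direction. Mrpl12, the flexible stalk protein, stood at 184, 165, 184 and 161 CPM in LLC1 mice and at 186, 177, 155 and 155 CPM in PBS mice (0.04, SE 0.079, adjusted p = 0.779). Mrpl10, which anchors it, stood at 55.5, 57.7, 63.1 and 56.2 CPM in LLC1 mice and at 53.1, 54.8, 54.8 and 54.0 CPM in PBS mice (0.10, SE 0.062, adjusted p = 0.335). Mrpl11, at the base of the stalk, stood at 39.8, 35.6, 40.4 and 38.2 CPM in LLC1 mice and at 42.9, 37.0, 30.8 and 36.3 CPM in PBS mice (0.07, SE 0.093, adjusted p = 0.668). Only for Mrpl10 and Mrpl53 did the groups not overlap, and the direction of Mrpl12 turned to -0.01 with total counts only and that of Mrpl11 to -0.01 without PBS 2-1. Mrpl53, a mitochondria-specific neighbor of the stalk, stood at 54.8, 47.1, 55.4 and 47.1 CPM in LLC1 mice and at 46.6, 46.3, 41.0 and 46.5 CPM in PBS mice (0.18, SE 0.078, adjusted p = 0.171), and shares 88% of its exon bases with Gm42688 on the same strand.

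Mammals have 3 paralogs of bacterial S18. Mrps18c takes the bacterial position, Mrps18b sits elsewhere in the small subunit and Mrps18a in the large subunit. Mrps18a stood at 60.7, 57.4, 60.4 and 49.0 CPM in LLC1 mice and at 60.2, 56.4, 54.4 and 54.2 CPM in PBS mice (log2 fold change 0.01, SE 0.078, adjusted p = 0.930). Mrps18b stood at 28.5, 23.8, 27.6 and 24.6 CPM in LLC1 mice and at 22.0, 25.4, 22.1 and 25.6 CPM in PBS mice (0.14, SE 0.088, adjusted p = 0.364). Mrps18c stood at 23.2, 17.3, 18.7 and 17.9 CPM in LLC1 mice and at 20.4, 19.98, 20.9 and 16.5 CPM in PBS mice (-0.01, SE 0.111, adjusted p = 0.958). The groups overlapped for all 3, and the sign for Mrps18a and Mrps18c changed under several settings.

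By position, 4 of 50 large subunit genes and 1 of 26 small subunit genes were higher and 0 of either lower, beside 4.12% higher of all genes and 5.51% at the members' level, with median log2 fold changes of 0.07 and 0.02. Of large subunit genes with a bacterial counterpart 2 of 30 were higher (median 0.08) and of those particular to mitochondria 2 of 20 (median 0.05). In the small subunit the counts were 1 of 15 (median 0.01) and 0 of 11 (median 0.03). Of the 8 genes listed for the exit tunnel, a list that does not hold Mrpl4, 0 passed, 7 lay above 0 and the values ran from -0.09 for Mrpl45, which tethers the ribosome to the inner membrane, to 0.28 for Mrpl23. Of the 5 genes of the central protuberance only Mrpl38 passed, and the median of the list was -0.003. Of 6 ribosomal subunits with other names, 0 passed, with values from -0.15 for Chchd1 to 0.28 for Aurkaip1 (adjusted p = 0.0547), both of the small subunit.

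The level of the members as a set differed between mice of 1 group. In PBS 1-1, 55 of the 77 members were at the highest level of the PBS mice, and the median member lay 0.13 above the PBS mean on the log2 scale, beside 0.02, -0.07 and -0.06 in PBS 1-3, 2-1 and 2-5. Among LLC1 mice, 1-2 had the highest level for 43 members and 1-5 for 28, with medians of 0.15 and 0.11, while 1-3 and 2-2 stood at 0.00 and 0.01. The groups therefore overlapped, since PBS 1-1 lay above 3 of the 4 LLC1 mice. The median of all genes lay within 0.02 of 0 in every mouse. The median coefficient of variation over members was 7.67% in PBS mice, 5.36% without PBS 1-1, and 7.29% in LLC1 mice.

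**Figure D3:**
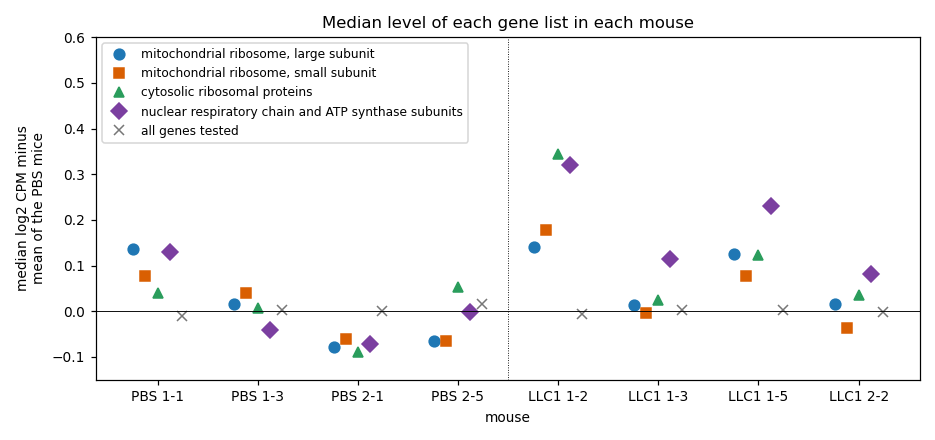
Median log2 CPM of each gene list in each mouse, as the difference from the mean of the PBS mice, with the PBS mice at the left and the LLC1 mice at the right of the dotted line. The medians of both ribosomal subunits are high in PBS 1-1, LLC1 1-2 and LLC1 1-5 and near 0 in LLC1 1-3 and 2-2. That of the respiratory chain is also high in PBS 1-1 (0.13), above LLC1 1-3 (0.12) and 2-2 (0.08).

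As a share of all counts of a library, the members took 0.432%, 0.400%, 0.426% and 0.402% in LLC1 1-2, 1-3, 1-5 and 2-2 and 0.407%, 0.420%, 0.400% and 0.399% in PBS 1-1, 1-3, 2-1 and 2-5. The means were 0.415 ± 0.0164% and 0.406 ± 0.0096% (SD, n = 4 each) and the groups overlapped. The Wilson 95% interval of the share in PBS 1-1, the shallowest library, was 0.403 to 0.410%, and such intervals cover counting error only. Before TMM scaling PBS 1-1 was thus not the highest PBS mouse. After it, the summed level was 4357 CPM in PBS 1-1 and 3802 to 4035 CPM in the other PBS mice.

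Fold changes were graded with base composition across the transcriptome. From the decile of genes with the lowest GC content to the decile with the highest, the median log2 fold change went from -0.13 to 0.11, and from the shortest to the longest decile it went from 0.12 to -0.07. Across 76 members with a transcript in GENCODE M21, Spearman's rho of log2 fold change was 0.44 with GC content and -0.28 with length (0.29 and -0.21 over all genes), values over genes that share the same 8 libraries. Members had a median GC content of 49.8%, near the 49.9% of all genes, but a median length of 1715 bases compared with 3361. Of the 38 members above the median GC content, 4 were higher and 30 had a log2 fold change above 0 (median 0.12), compared with 1 and 22 of the other 38 (median 0.02), beside 4.12% higher and 7724 of 16111 above 0 over all genes. Mrpl38, Mrpl2, Mrps12 and Mrpl4 had GC contents of 59.6%, 57.5%, 56.5% and 56.1%, and Mrpl57 of 42.3%. The part of base composition in these differences was not tested beyond the offsets.

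**Figure D4:**
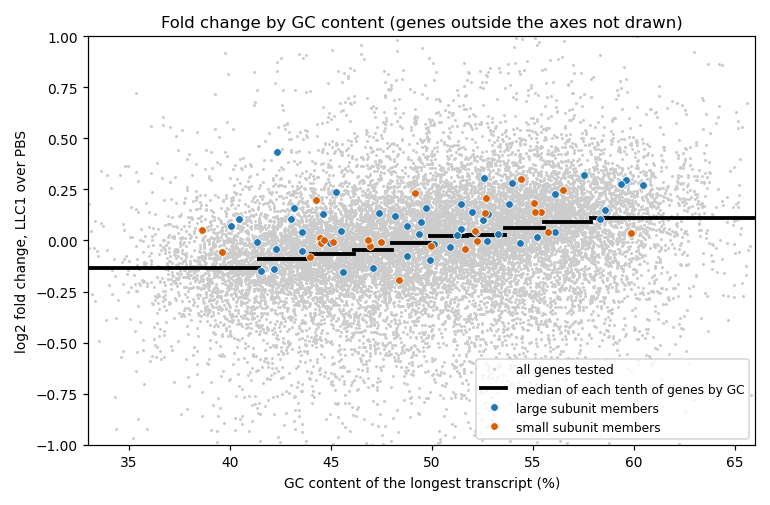
Log2 fold change, LLC1 over PBS, against the GC content of the longest transcript in percent, for all genes tested (gray) and for members of the large (blue) and small (orange) subunit. Black steps are the median of each decile of genes by GC content and climb from -0.13 to 0.11, and the member outlying at the upper left is Mrpl57 with a GC content of 42.3%.

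Genes that serve the mitochondrial ribosome were set beside the 4.12% higher and 4.61% lower of all genes. Of 13 translation factors, which start, extend and end mitochondrial protein synthesis, 0 passed the test, 6 lay above 0 and 7 below, and the median was -0.02. They ran from Guf1, a back-translocating elongation factor, at -0.20 (adjusted p = 0.161) to Mtif3, an initiation factor, at 0.15 (adjusted p = 0.268). Of 22 assembly factors and rRNA-modifying enzymes 1 was higher, 0 were lower and the median was 0.08. The extremes, neither past the test, were Trmt61b, listed as a processed transcript, at -0.45 (adjusted p = 0.267) and Mpv17l2 at 0.31 (adjusted p = 0.133).

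The assembly factor that rose was Mtg2, a GTPase that acts late in the assembly of the large subunit. It stood at 35.5, 35.5, 35.4 and 34.2 CPM in LLC1 mice and at 29.2, 31.4, 27.7 and 29.1 CPM in PBS mice, without overlap. Mtg2 had a log2 fold change of 0.26 (SE 0.065), which is 1.198-fold (1.09 to 1.32), at an adjusted p = 0.0304. Of 7 genes of mitochondrial transcription 0 passed. They ran from -0.20 for Mterf2 (adjusted p = 0.214) to 0.30 for Mterf1b (adjusted p = 0.602), and Polrmt, the mitochondrial RNA polymerase, had a value of 0.26 (adjusted p = 0.0633).

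Set beside these, 18 of 77 nuclear genes of the respiratory chain and ATP synthase were higher and 0 lower, with 72 above 0 and a median log2 fold change of 0.19. Of 79 cytosolic ribosomal protein genes tested, 6 were higher and 0 lower, with 65 above 0 and a median of 0.15. By mouse, the median of these genes relative to the PBS mean was 0.34 in LLC1 1-2 and 0.12 in LLC1 1-5 on the log2 scale. LLC1 1-3 (0.025) and 2-2 (0.035) lay below PBS 1-1 (0.039) and PBS 2-5 (0.054). The median log2 fold changes of the members (0.04) and of the translation factors (-0.02) were lower than those of both lists, and whether the lists differ was not tested. Levels of the lists were not independent, since the same 8 mice gave all of them.

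**Figure D5:**
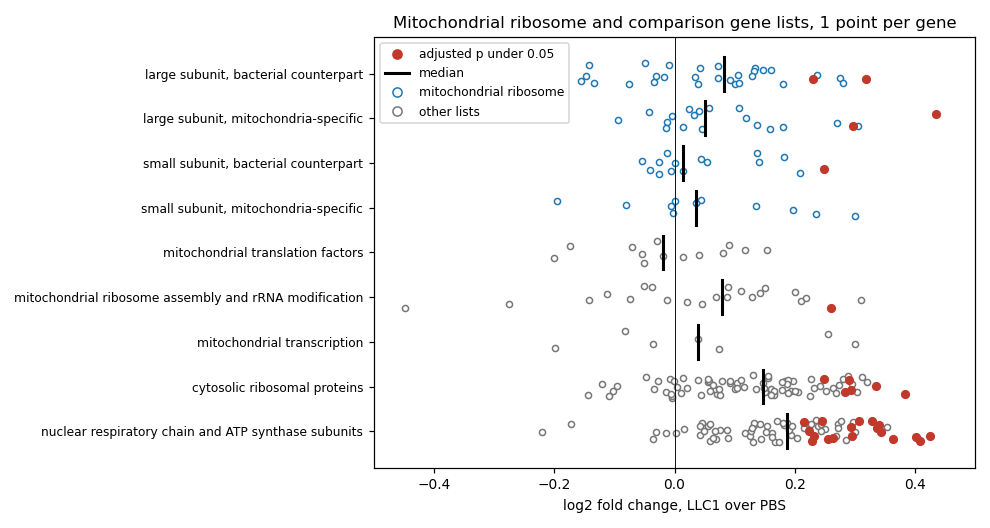
Log2 fold change, LLC1 over PBS, of each gene of the mitochondrial ribosome lists (blue) and of the lists set beside them (gray), with 1 point per gene, spread at random in height within a list. Red points passed an adjusted p of 0.05 and black bars are the medians, which run from -0.02 for translation factors to 0.19 for the respiratory chain.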

How the data were processed

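Ventricular RNA of 4 LLC1 and 4 PBS mice was sequenced by the study from TruSeq libraries of total RNA in 150-base pairs. The deposited values were raw counts per gene on mm10 that the authors had not normalized. The submitters' processing notes name CASAVA, STAR and featureCounts without versions, and the annotation and strand setting were not given in the sources used here, so reads of overlapping genes on opposite strands cannot be told apart. Gene lengths in bases came from the same deposited table.

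For the comparison, low counts were removed by filterByExpr (minimum count 10), libraries scaled by TMM, and edgeR's quasi-likelihood F-test (edgeR 4.0.16, R 4.3.3) run over 16111 genes with Benjamini-Hochberg adjustment at 0.05. No litters or cages are named in the labels, so their part in the group differences could not be told apart. The p-values set the group difference against the spread between mice of the same group. A gene of 1 CPM has about 12 to 20 counts. GC content and overlaps came from GENCODE M21 (GRCm38), promoter windows from RefSeq, and transcripts similar over 150 bases at 97% identity from blastn 2.17.0. Python 3.11.15, pandas 2.3.3 and scipy 1.17.1 served the remaining steps and matplotlib 3.10.9 the figures. The fit was also run on counts simulated from its own model without an outlying mouse, so that run does not bear on the calls given here.

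Alternatives were DESeq2 1.42.0, upper-quartile scaling, total counts only, no filter, at least 10 counts in every mouse, robust empirical Bayes, limma-voom (limma 3.58.1), a likelihood ratio test, the number that opens a mouse's code as a covariate, length and GC offsets (loess span 0.3), and each mouse left out. Genes named with every mouse's value were those past the threshold, the 4 lowest fold changes, and the stalk, Mrps18 and cardiomyopathy lists. The 3 highest and lowest by level are given by level, and genes of other lists where past the threshold or at an extreme. Mrpl14, Mrpl23 and the members gained without PBS 1-1 were chosen after their values were seen. The members and lists were chosen with earlier results of these data known.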

Additional observations from a re-analysis of the deposited data

Results flagged for a closer look

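In PBS 2-1 the level of Mrpl53 was 41.0 CPM, below the 46.3 to 46.6 CPM of the other PBS mice, a gap that took 0.956 of the range of the group, past the 95% limit of Dixon's test for 4 values. Of 46 groups of 4 mice examined, 1 passed this limit, and chance passes about 1 in 20. Without PBS 2-1 the log2 fold change of Mrpl53 was 0.13 (adjusted p = 0.359 in edgeR's quasi-likelihood test). Mrpl53 shares 88% of its exon bases with Gm42688, and the part of that overlap was not tested.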

How the results depend on the processing

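The count of members higher was 5, and 4 or 5 with DESeq2, upper-quartile scaling, no filter, at least 10 counts, the likelihood ratio test, limma-voom, robust empirical Bayes and the covariate. Over these settings the share of all genes higher ran from 2.83% with no filter to 5.62% with DESeq2. Where the count of members was 4, Mrps12 was the gene that did not pass. It was 0 with total counts only, which moved the median of all genes to -0.065, and 2 with length offsets and 2 with GC offsets. With a mouse left out it ranged from 0 (without LLC1 1-5, PBS 1-3 or PBS 2-1) to 12 (without PBS 1-1), while the share of all genes higher ran from 1.3% to 5.56%. No member was lower under any of these. The 5 genes called had fold changes above 0 in all of them. The median log2 fold change of members ran from -0.003 with total counts only to 0.066 with GC offsets, and from 0.02 to 0.09 with a mouse left out. Signs changed only near 0 among the named members. Mrpl12 went to -0.0088 with total counts only, -0.0027 with the covariate, -0.0049 with length offsets and -0.037 with GC offsets. Mrps14 went to 0.060 with GC offsets. Mrps18a went to -0.039 with total counts only, -0.034 with the covariate and -0.056 with GC offsets, and ran from -0.017 to 0.076 with a mouse left out. Mrps18c went to 0.0018 with no filter and 0.054 with GC offsets, and ran from -0.112 to 0.033 with a mouse left out. Mrpl11 ran from -0.0095 to 0.153. Some values moved without a change of sign. Mrpl1 went from -0.147 to -0.043 with GC offsets. Mrpl32 went from -0.142 to -0.267 with length offsets and to -0.043 with GC offsets. Mrpl44 went from 0.138 to 0.078 without PBS 2-5, and Mrpl10 from 0.101 to 0.060 without LLC1 1-5. The cause of these changes was not tested. No paired analysis was possible because the groups share only 1 replicate code (1-3), carried by different animals. The lowest count of a member in a mouse was 189, and 4 mice per group left a median SE of 0.080 on the log2 scale, so smaller differences could be missed.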
